A study of Homo sapiens with 4 samples.

Results

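The enzymes that add and remove DNA methylation were examined at the level of their mRNAs: DNMT1, DNMT3A and DNMT3B, the hemimethylation reader UHRF1, and TET1, TET2 and TET3. The genes were taken by symbol from a table of m6A peaks. Of the 7 genes, 5 had a listed peak, and TET1 and TET3 were unlisted. The 5 genes held 44 of the 27678 listed peaks: 19 in DNMT1, 11 in UHRF1, 10 in DNMT3B, 2 in DNMT3A and 2 in TET2. Over the whole annotation 36.4% of 19969 protein-coding genes had a listed peak, and among the 6761 with a coding transcript of at least 4000 nt, a class that takes in all 7, it was 55.2%.

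The libraries were made from poly(A) RNA of MDA-MB-231Br, breast cancer cells selected from MDA-MB-231 for growth in the brain. The cell line label itself reads MDA-MB-231, and an extraction protocol that mentions embryos conflicts with both. Sonicated mRNA was pulled down with an antibody against N6-methyladenosine (m6A) to give the immunoprecipitate (IP), and 2 IP and 2 input libraries were labelled, with no treatment. The table gave 1 IP and 1 input read count per peak, taken here as pooled, so no spread between libraries can be given and no test across libraries was possible. All intervals are exact 95% Clopper-Pearson intervals for counting error. Library totals were not used, so equal IP and input reads are no zero point for enrichment, and ratios are compared only between peaks of this table.

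Of the mesenchymal-like breast cancer markers, 6 of 6 were listed (VIM, CD44, AXL, EGFR, CAV1 and MSN). The luminal markers had 2 of 7, GATA3 and EPCAM, both in peaks with 0 input reads, and ESR1, PGR, ERBB2, FOXA1 and CDH1 were unlisted. Haematopoietic markers had 0 of 3 and early embryo markers 0 of 3. A median peak of the whole table held 32 IP and 67 input reads.

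DNA methylation in mammals sits mainly on cytosines of CpG pairs. DNMT1 copies it to the daughter strand after replication, guided by UHRF1, which binds half-methylated DNA and marks histone H3 with ubiquitin. DNMT3A and DNMT3B set new methylation, and the TET dioxygenases oxidise 5-methylcytosine as the step towards its removal. In mRNA, m6A is an unrelated mark on adenosine, placed by a methyltransferase complex that prefers an adenosine preceded by a G and followed by a C.

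The stretches that carry the contrasts below are printed 5′ to 3′ as DNA letters in the sense of the mRNA. They come from the GENCODE release 29 transcripts on GRCh38, with introns left out. Each GGAC, the core of the m6A consensus, is in capitals, save for a flanking site of UHRF1 named below. The first set shows DNMT1 on the minus strand of chromosome 19: the 2 windows with the highest IP-to-input ratios (chr19:10162685-10166678 and chr19:10160407-10163351), the window with the lowest (chr19:10155935-10156499) and the 3′-most listed window (chr19:10154462-10154767).
DNMT1 codons 255 to 314: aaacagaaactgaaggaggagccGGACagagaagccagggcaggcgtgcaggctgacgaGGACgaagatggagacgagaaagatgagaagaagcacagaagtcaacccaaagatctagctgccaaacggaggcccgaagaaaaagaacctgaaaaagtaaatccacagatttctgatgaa
DNMT1 codons 285 to 324: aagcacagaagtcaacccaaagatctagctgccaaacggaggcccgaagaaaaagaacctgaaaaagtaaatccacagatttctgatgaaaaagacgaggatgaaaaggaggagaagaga
DNMT1 codons 415 to 454: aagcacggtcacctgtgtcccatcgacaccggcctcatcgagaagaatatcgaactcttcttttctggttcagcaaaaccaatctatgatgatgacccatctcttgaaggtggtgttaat
DNMT1 codons 535 to 601: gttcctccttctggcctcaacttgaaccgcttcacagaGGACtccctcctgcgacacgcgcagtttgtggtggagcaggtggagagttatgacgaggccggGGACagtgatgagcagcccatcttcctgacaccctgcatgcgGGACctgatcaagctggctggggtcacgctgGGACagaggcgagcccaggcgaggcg

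The next set is from UHRF1 on the plus strand of chromosome 19. Its first window holds 3 GGAC sites, all in the opening codons of exon 2. The outer sites are shown with their flanks (chr19:4910890-4910917 and chr19:4910921-4910948). The middle site, at codon 8, lies in the 3′ flank printed for codon 6 and is left in lower case there. After these lines come the whole second window (chr19:4910940-4929332) and the single site of the IP-poor 3′ UTR window (chr19:4960994-4961021).
UHRF1 codon 6: ggatccaggttcGGACcatggacgggag
UHRF1 codon 16: gacccacacggtGGACtcgctgtccagg
UHRF1 codons 19 to 88: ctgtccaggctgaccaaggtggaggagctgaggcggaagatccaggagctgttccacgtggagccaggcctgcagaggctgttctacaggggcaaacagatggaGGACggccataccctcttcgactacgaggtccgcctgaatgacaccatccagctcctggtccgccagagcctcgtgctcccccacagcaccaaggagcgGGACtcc
UHRF1 3′ UTR: tggctaaaagttGGACttctcagtattg

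The last set is from the de novo enzymes and TET2. For DNMT3B, on the plus strand, it shows an IP-rich 5′ window that is not its highest (chr20:32780433-32784852) and its IP-poor last window (chr20:32806237-32807900). The coding window of DNMT3A that aligns with this last window follows (chr2:25234345-25235760, minus strand). From the plus strand of chromosome 4 come the coding window of TET2 (chr4:105235853-105235987) and the GGAC site of its 5′ UTR window (chr4:105190454-105190481).
DNMT3B codons 37 to 100: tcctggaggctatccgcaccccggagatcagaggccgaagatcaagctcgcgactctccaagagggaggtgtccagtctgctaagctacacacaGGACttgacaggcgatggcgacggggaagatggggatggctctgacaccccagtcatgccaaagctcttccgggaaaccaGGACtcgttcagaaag
DNMT3B codons 777 to 853: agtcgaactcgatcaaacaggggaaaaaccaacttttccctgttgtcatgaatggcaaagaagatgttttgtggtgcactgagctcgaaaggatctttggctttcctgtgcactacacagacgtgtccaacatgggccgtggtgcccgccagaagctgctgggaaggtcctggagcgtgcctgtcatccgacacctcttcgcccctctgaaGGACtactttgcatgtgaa
DNMT3A codons 848 to 891: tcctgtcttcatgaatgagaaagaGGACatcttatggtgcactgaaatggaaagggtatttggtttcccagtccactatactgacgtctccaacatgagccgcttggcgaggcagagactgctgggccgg
TET2 codons 637 to 682: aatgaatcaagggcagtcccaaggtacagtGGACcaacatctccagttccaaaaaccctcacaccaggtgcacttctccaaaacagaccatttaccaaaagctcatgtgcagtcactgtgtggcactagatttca
TET2 5′ UTR: cagcagccaataGGACatgatccaggaa

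DNMT1, the maintenance methyltransferase, had its IP reads in 2 separate coding stretches with an almost empty one between them. On its transcript of 40 exons and 1616 codons, the listed windows ran from the start codon to codon 601. They left the last 3049 nt of the coding sequence, which hold the catalytic domain, and the 3′ UTR without a listed peak. As many peaks or more were listed for 0.702% of 7267 gene symbols. IP reads outnumbered input reads in 10 of the 19 windows, where 40.5% of all listed peaks did so.

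From the start codon the ratio was low. The first window, which begins 18 nt before the start codon and spans exons 1 to 3 (chr19:10180831-10194917), held 80 IP and 239 input reads, a ratio of 0.335 (0.257 to 0.433). The next, in codons 28 to 71, held 8 IP and 114 input reads (0.0702, 0.0296 to 0.143), and codons 58 to 108 held 83 and 445 (0.187, 0.146 to 0.236). In these windows input reads outnumbered IP reads, and they lie in the part of the protein that binds partner proteins at its amino end.

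The ratio then climbed over overlapping windows. It was 0.677 (0.593 to 0.771) in codons 78 to 181, from 389 IP and 575 input reads, 0.899 (0.786 to 1.03) in codons 151 to 204 and 1.05 (0.911 to 1.21) in codons 175 to 211. Codons 201 to 244 held 1068 IP and 386 input reads (2.77, 2.46 to 3.12), and codons 215 to 271 held 2681 and 434 (6.18, 5.58 to 6.85). The top of this stretch was formed by 3 windows over exons 9 to 13. Codons 241 to 284 held 4913 IP and 517 input reads (9.50, 8.68 to 10.4), codons 255 to 314 held 5277 and 488 (10.8, 9.85 to 11.9), and codons 285 to 324 held 4096 and 368 (11.1, 10.0 to 12.4). The intervals of the last pair overlap, so their order is not set by these reads. The highest ratio of DNMT1 was above that of 79.7% of listed genes. It is the highest of 19 windows, where the median gene had 3, and this rank was not adjusted for window number.

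On the 3′ side the ratio dropped within a short distance. Codons 295 to 348 held 890 IP and 450 input reads (1.98, 1.76 to 2.22), although this window shares 90 nt with the highest. Ratios of 1.26 (1.09 to 1.46), 0.699 (0.597 to 0.817) and 0.436 (0.354 to 0.536) followed up to codon 394. Codons 415 to 454, in exons 17 and 18, held 7 IP reads against 346 input reads (0.0202, 0.00807 to 0.0421), and 1.80% of all listed peaks ranked below it. The highest and the lowest window of DNMT1 thus differed by 550.2 times in their ratios (exact conditional interval 260.7 to 1385). Library totals cancel in this quotient, but the pair was picked as the extremes.

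A second IP-rich stretch began near codon 485. Codons 455 to 514 held 56 IP and 436 input reads (0.128, 0.0955 to 0.170), codons 485 to 564 in exons 19 and 20 held 1930 and 603 (3.20, 2.92 to 3.51), and codons 535 to 601 in exons 20 and 21 held 3845 and 820 (4.69, 4.35 to 5.06). The last window contained 4 GGAC sites in 200 nt, printed above. Set against the first window of the mRNA, the ratio of this last one was higher; the first was 0.0714 times the last (0.0541 to 0.0935). Within the listed windows the first stretch reached higher than the second. Its highest ratio was 2.37 times that of the last window (2.08 to 2.71), beyond which no window was listed.

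**Figure D1:**
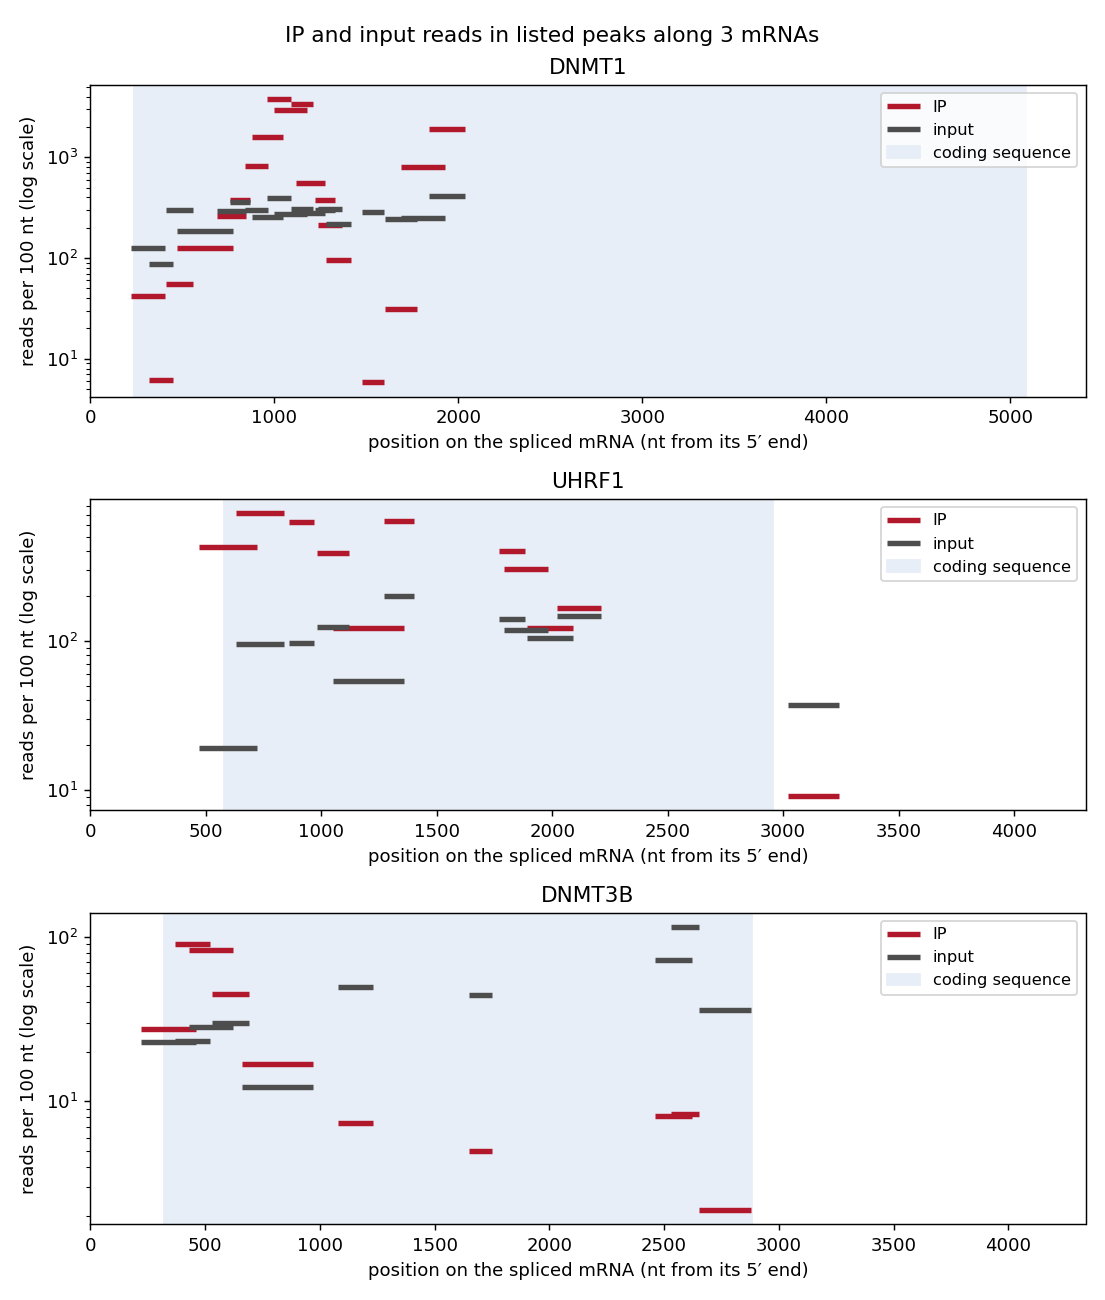
IP reads (red) and input reads (grey) per 100 nt of each listed window, on a log axis, against position on the spliced mRNA of DNMT1, UHRF1 and DNMT3B; each line spans its window and the shaded area is the coding sequence. In DNMT1 the input lines lie between 87.7 and 410.0 reads per 100 nt, while the IP lines run from 5.83 to 3779.

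Most of this contrast lay in the IP reads. Values per 100 nt take a count to cover its whole window, and no source used here gives the counting rule. Across the 19 DNMT1 windows, IP reads per 100 nt ranged from 5.83 to 3779, a factor of 648, and input reads per 100 nt from 87.7 to 410.0, a factor of 4.68. In UHRF1 the factors were 79.1 for IP and 10.3 for input, and in DNMT3B 41.7 and 9.38. On the log2 scale with a pseudocount of 1 on both reads, the ratios of DNMT1 spanned 8.91, a wider span than in 94% of the 497 genes with at least 10 peaks, whose median span was 6.23. UHRF1 spanned 6.42 and DNMT3B 5.72. Spans were not adjusted for the number of peaks in a gene. Base composition of the DNMT1 windows showed little relation to the ratio (Spearman rho 0.114 over 19 overlapping windows of 1 mRNA, given as a description).

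UHRF1, the partner that brings DNMT1 to replicated DNA, had its highest IP-to-input ratio at the start codon and lower ratios towards the 3′ end. IP reads themselves were densest in the second window, at 719.5 per 100 nt. Of its 11 windows 10 had more IP than input reads, and 3 had at least 4 IP reads per input read, against 17.2% of all listed peaks. The gene lies on the plus strand of chromosome 19, and the windows were placed on a transcript of 17 exons and 793 codons. As many peaks or more were listed for 5.17% of gene symbols.

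The first window joins exons 1 and 2 (chr19:4903550-4911029), begins 106 nt before the start codon and ends at codon 48. It held 1062 IP and 48 input reads (22.1, 16.6 to 30.2). This was the highest ratio in the 44 windows of the 5 listed genes, above 96.6% of all listed peaks by rank. Its input was the lowest per 100 nt of the gene, at 19.2 reads, beside 424.8 IP reads per 100 nt. Codons 19 to 88, which encode part of the ubiquitin-like domain at the amino end, held 1511 IP and 200 input reads (7.55, 6.51 to 8.80). Codons 95 to 132 held 683 and 106 (6.44, 5.24 to 7.98). The intervals of these last windows overlap, and both lie below that of the first.

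Further along the UHRF1 mRNA the ratio was lower. It was 3.14 (2.65 to 3.75) in codons 135 to 182, from 544 IP and 173 input reads. Codons 159 to 262 held 379 and 166 (2.28, 1.90 to 2.76) and codons 232 to 275 held 830 and 258 (3.22, 2.79 to 3.71). Codons 399 to 435 held 438 and 155 (2.83, 2.35 to 3.42) and codons 405 to 468 held 576 and 223 (2.58, 2.21 to 3.03). The intervals of the pair at 2.28 and 3.22 do not overlap, and those of the other neighbours among these windows do. The last coding windows, codons 439 to 505 and 482 to 545, held 244 IP against 208 input reads (1.17, 0.971 to 1.42) and 315 against 279 (1.13, 0.958 to 1.33).

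No window was listed in the UHRF1 coding sequence beyond codon 545, the part that encodes the RING finger. The 3′ UTR window in exon 17 (chr19:4960866-4961085) held 20 IP and 82 input reads (0.244, 0.142 to 0.401). The first window stood 90.7 times above it in ratio (49.8 to 168). GC content of this 3′ UTR window was 30.0%, whereas the other UHRF1 windows had between 57.0% and 67.9%, and the part of base composition in the contrast was not tested. Along the mRNA, ratio and position were related with a Spearman rho of -0.927 over 11 windows, some of which overlap.

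**Figure D2:**
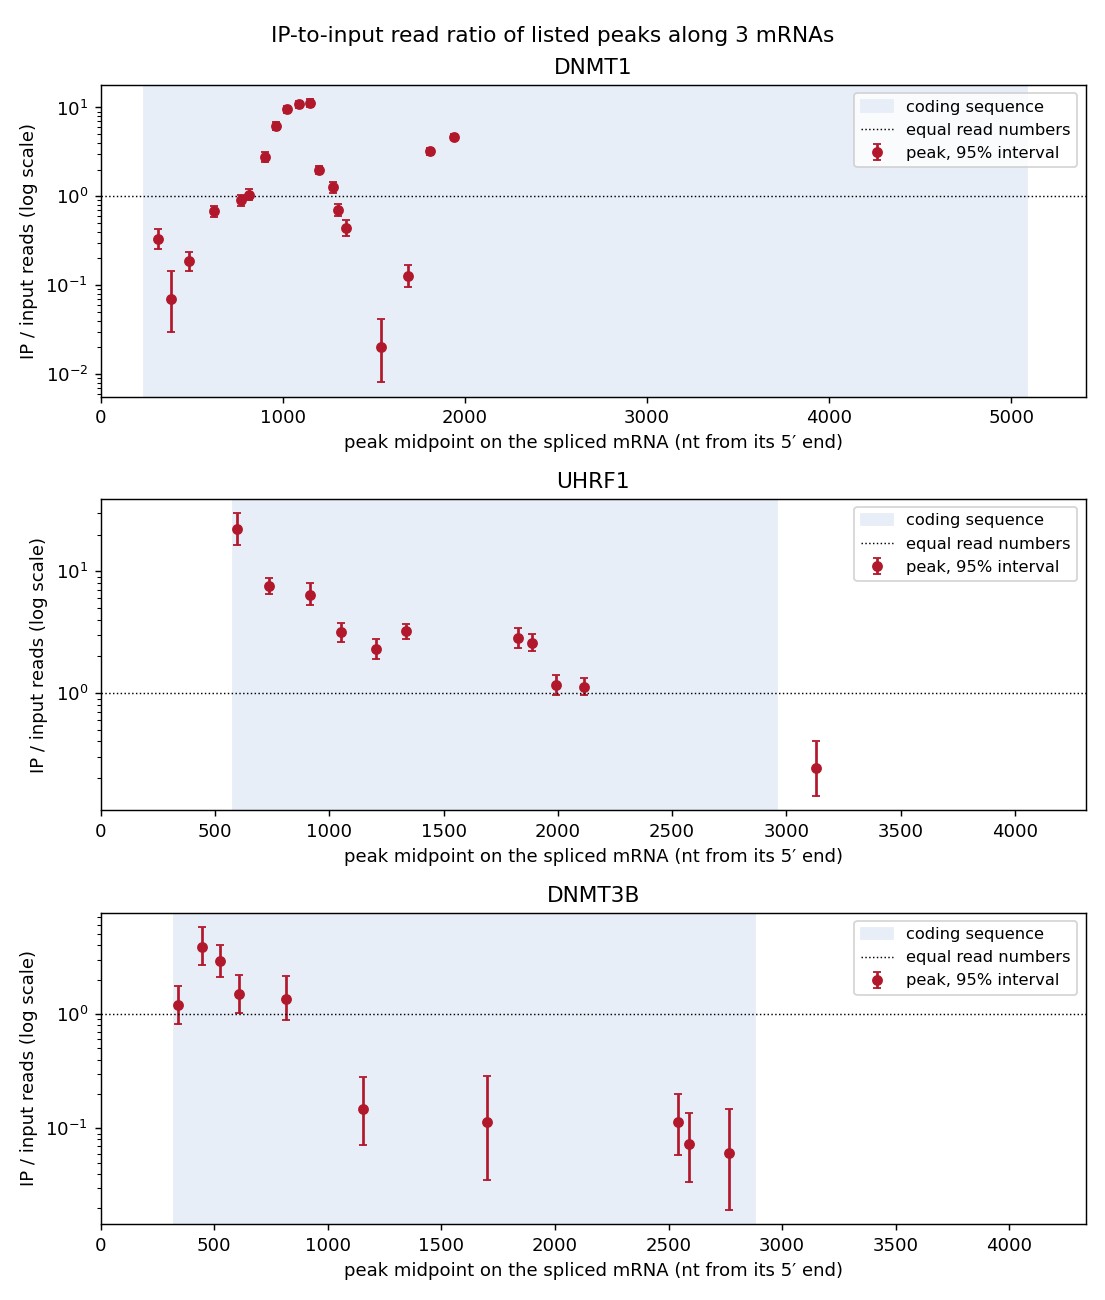
IP-to-input read ratio on a log axis, with exact 95% intervals for counting error, at the midpoint of each listed window along the spliced mRNA of DNMT1, UHRF1 and DNMT3B. DNMT1 has a maximum at 11.1, falls to 0.0202 and rises again to 4.69 in its last listed window. UHRF1 has 22.1 in its first and 0.244 in its last window, and the ratio stays at or below 0.149 past codon 254 of DNMT3B.

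DNMT3B, a de novo methyltransferase, was split between codons 217 and 254 into an IP-rich 5′ part and an IP-poor 3′ part. As many peaks or more as its 10 were listed for 6.84% of gene symbols. The windows were placed on a transcript of 23 exons and 853 codons on chromosome 20. The first 5 all had more IP than input reads, and the last 5 all had at least 4 input reads per IP read, a class that held 30.3% of all listed peaks. None had at least 4 IP reads per input read.

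In the 5′ part of DNMT3B, the window across the start codon (chr20:32762605-32780462) held 66 IP and 55 input reads (1.20, 0.826 to 1.75). Codons 17 to 67 held 136 and 35 (3.89, 2.66 to 5.81) and codons 37 to 100 held 157 and 54 (2.91, 2.12 to 4.04). These were the highest of the gene, and they share 90 nt and overlapping intervals. Codons 70 to 123 held 72 and 48 reads (1.5, 1.03 to 2.21) and codons 114 to 217 held 52 and 38 (1.37, 0.883 to 2.14). This stretch of the protein precedes the chromatin-binding PWWP domain.

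In the 3′ part of DNMT3B, codons 254 to 303 held 11 IP and 74 input reads (0.149, 0.0711 to 0.282). Codons 444 to 477 held 5 and 44 (0.114, 0.0352 to 0.286), and codons 714 to 767 held 13 and 115 (0.113, 0.0584 to 0.201). Codons 737 to 777 held 10 and 138 (0.0725, 0.0340 to 0.137), and codons 777 to 853, which end at the stop codon, held 5 and 82 (0.0610, 0.0193 to 0.148). All of these intervals overlap, and none overlaps an interval of the 5′ part. The first window stood 19.7 times above the last in ratio (7.26 to 65.7). GC content moved with this split, at 58.4% to 72.1% in the first 5 windows and 45.0% to 53.3% in the last 5, and its part was not tested.

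In DNMT3B, as in UHRF1, ratios were lower towards the 3′ end, with a Spearman rho of -0.879 over its 10 windows. For DNMT1 the rho was 0.189 over 19 windows. Among the 497 genes with at least 10 peaks the median rho was -0.30 and 71.8% were negative. The value was higher than that of UHRF1 in 98.8% of these genes and higher than that of DNMT3B in 96.8%, but higher than that of DNMT1 in 19.5%. Neighbouring windows share sequence, so these values are descriptions.

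DNMT3A, the other de novo methyltransferase, had 2 windows, both IP-poor and at its 3′ coding end. Codons 848 to 891 in exons 22 and 23 (chr2:25234345-25235760) held 7 IP and 28 input reads (0.250, 0.0922 to 0.586). An overlapping window from codon 868 into the 3′ UTR (chr2:25234185-25234414) held 6 and 24 (0.250, 0.0836 to 0.628). They share 70 nt and are not separate evidence. In the authors' deposited table their FDR values were 0.0418 and 0.00782, in the reverse order of their deposited p-values.

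The DNMT3A window at codons 848 to 891 and the last DNMT3B window cover the same part of the catalytic domain of these related enzymes. Over 125 aligned nt without a gap, 94 bases (75.2%) were identical, between codons 849 to 890 of DNMT3A and 790 to 831 of DNMT3B. Both windows had more input than IP reads, at ratios of 0.250 and 0.0610, and their intervals overlap. The 5′ part of DNMT3A, where DNMT3B was IP-rich, had no listed window. The table does not tell whether an unlisted stretch was unmethylated, too thinly covered or left out for another reason. IP-poor windows were listed too, so an unlisted stretch cannot be read as one of low ratio.

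TET2, a 5-methylcytosine dioxygenase, was the one listed member of its family, with few reads. A 5′ UTR window in exon 2 (chr4:105190363-105190482) held 13 IP and 4 input reads (3.25, 1.00 to 13.7). A coding window in exon 3 (chr4:105235853-105235987), codons 637 to 682 of 2002 and well before the catalytic domain at the carboxyl end, held 9 IP reads and 1 input read (9.0, 1.25 to 394). Their ratios were not distinguishable at this depth, the first being 0.361 times the second (0.00661 to 4.67). Each had 2 entries in the table and was counted once. In the authors' deposited table their FDR values were 0.00149 and 0.00751. TET1 and TET3 have annotated coding transcripts of 9288 and 11388 nt, and neither had a listed window.

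**Figure D3:**
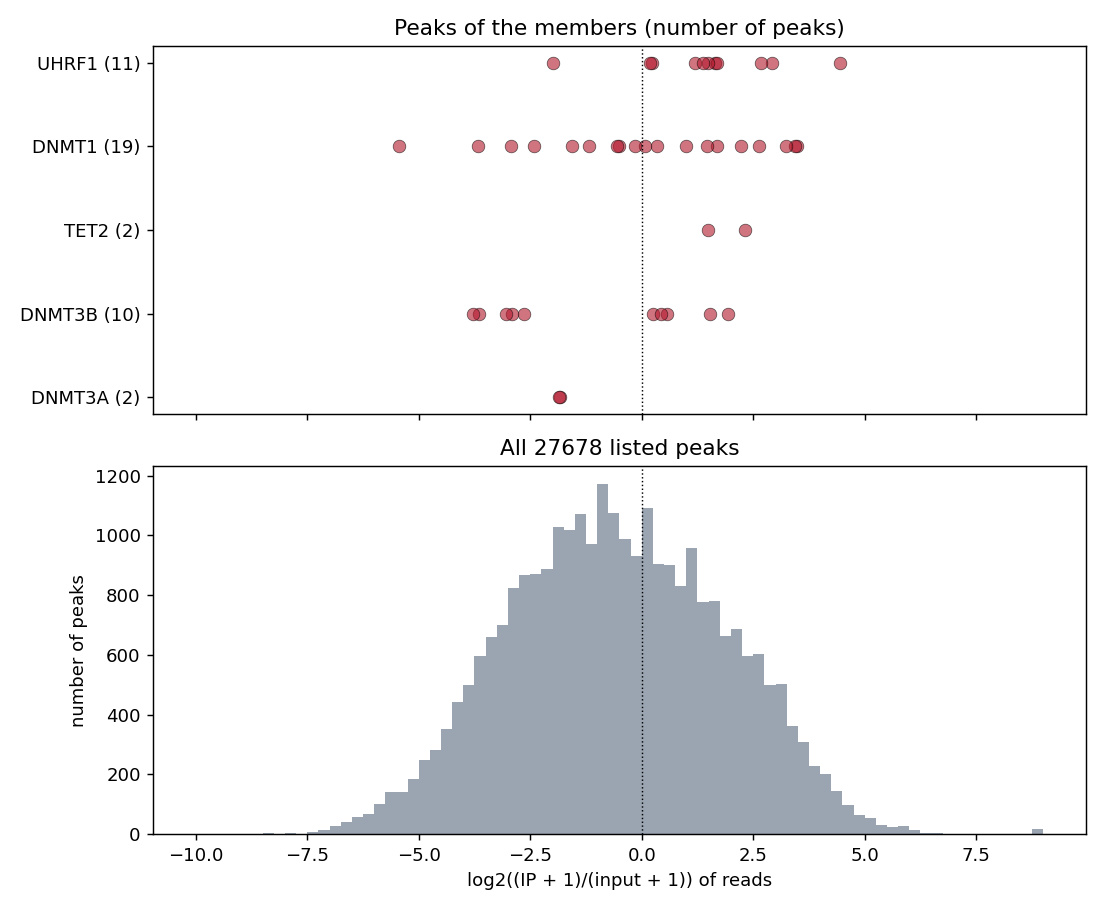
Upper panel, log2((IP + 1)/(input + 1)) of each of the 44 peaks in the 5 listed genes, ordered by highest ratio; lower panel, the same measure for all 27678 listed peaks. The dotted line marks equal read numbers, DNMT3B falls into 2 groups of 5, and the lowest DNMT1 peak lies in the low tail of the table.

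By their highest window, the genes ran from UHRF1 at 22.1 over DNMT1 at 11.1, TET2 at 9.0 and DNMT3B at 3.89 to DNMT3A at 0.250. The intervals of UHRF1, DNMT1, DNMT3B and DNMT3A do not overlap each other, whereas that of TET2 overlaps all but the one of DNMT3A. The genes differ in their number of windows, and this order was not adjusted for it. A window at or above a ratio of 4 was found in 3 of the 5 genes (UHRF1, DNMT1 and TET2). Among all listed gene symbols 43.5% had such a window, or 38.3% without windows that lack an input read. The interval of the TET2 window begins at 1.25, so its ratio is not shown to reach 4. A window with more IP than input reads was found in 4 of the 5, against 73.8% of listed symbols. Over single windows IP exceeded input in 27 of 44 (61.4%), at least 4 IP reads per input read stood in 9 (20.5%), and at least 4 input reads per IP read in 12 (27.3%). The median ratio was 1.32 in the 44 windows and 0.64 in the table. Since the windows come from 5 mRNAs and mostly overlap, these shares describe the genes and test nothing.

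Input reads per 100 nt of listed window gave the order of coverage. The median was 288 for DNMT1 (87.7 to 410.0), 104 for UHRF1 (19.2 to 198) and 32.8 for DNMT3B (12.3 to 115). It was 16 for DNMT3A (10.4 to 21.5) and 2.04 for TET2 (0.741 to 3.33). The ranges of neighbours in this order overlap, except those of DNMT3A and TET2. Over all placed peaks the median was 35.8. These values hold for listed windows only and are no measure of the level of the whole mRNA.

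By the authors' region column, 39 of the 44 windows lay in coding sequence (88.6%), 3 in the 5′ UTR (6.82%) and 2 in the 3′ UTR (4.55%). Over the table the shares were 68.3%, 17.9% and 13.8%. By midpoint, 42 lay in coding sequence, and the 5′ UTR and 3′ UTR had 1 each. The 5′ UTR windows of UHRF1 and DNMT3B reached across the start codon into coding sequence. No exon of another annotated gene lay over any of the 44 windows (0 of 44).

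The core letters GGAC, searched in the sense of the mRNA alone since the mark is on RNA, were in 63.4% of 27154 placed peaks. They were in 11 of 11 windows of UHRF1, 10 of 19 of DNMT1, 7 of 10 of DNMT3B, 2 of 2 of DNMT3A and 2 of 2 of TET2. Counted once per position, UHRF1 had 1.09 sites per 100 nt of listed sequence, against 1.30 in its whole coding sequence and 0.835 over its mRNA. DNMT1 had 0.511 per 100 nt of listed sequence, against 0.680 in its whole coding sequence and 0.629 over its mRNA. Counted per window, with shared sites and bases entering more than once, UHRF1 had 1.07 and DNMT1 0.523 per 100 nt. The same measure over all placed peaks was 0.545.

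Within DNMT1, 4 of the 5 windows at or above a ratio of 4 held a site, and 1 of the 4 windows at or below a ratio of 0.25 did. Over its 19 windows, which share sites where they overlap, site number and ratio had a Spearman rho of 0.45. The highest window, codons 285 to 324, held none in 120 nt, where 46.8% of 1055 listed peaks of that length held 1 or more. The overlapping windows over codons 241 to 314 held 2 each, at codons 262 and 274, and the lowest window held none. The site at codon 274 is followed by a G and does not match DRACH. By DRACH matches the order differed, with 1 in the highest window and 3 in the lowest. Of the listed peaks of that length, 91.1% held a DRACH match. In DNMT3B, 4 of the 5 IP-rich and 3 of the 5 IP-poor windows held a site. Its highest window, codons 17 to 67, held none in 150 nt, where 53.8% of 1216 listed peaks of that length held 1 or more. A match is a description of letters, and the absence of one says only that they are not in that window.

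Other genes of the DNA methylation pathway were taken from lists by role, which were drawn up with earlier results of these data known. Of 38 genes, 23 had a listed peak (60.5%), beside 36.4% of protein-coding genes and 55.2% of those with a coding transcript of at least 4000 nt. Transcript length and expression of the 38 genes were not taken into account. Of these 23, 16 had a peak with more IP than input reads (73.8% of listed symbols did) and 7 had one at or above a ratio of 4 with at least 1 input read (38.3% of listed symbols by the same rule). Of these 7, only CXXC5 and GADD45A had intervals that lie wholly above 4, from 4.63 and from 5.57. Counting windows without an input read too, UHRF2 is added, which makes 8 (43.5% of listed symbols), although its ratio is not shown to reach 4. Of their 81 peaks, 32 had more IP than input reads (39.5%), beside 40.5% of all listed peaks. The median of the highest ratio per gene was 1.82 in the 23 genes and 3.0 in all listed symbols.

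Among maintenance partners, 2 of 7 were listed. UHRF2, the relative of UHRF1, had a 5′ UTR window with 5 IP reads and no input read. Its ratio was 1.67 against a floor of 3 counts, but its exact interval began at 0.916, so these reads do not bound it above 1. USP7, a deubiquitinase that acts on both DNMT1 and UHRF1, had 4 windows, none with more IP than input reads, and at most 22 IP against 97 input reads (0.227, 0.136 to 0.363). HELLS, CDCA7, PCNA, LIG1 and DMAP1 were unlisted. Of the genes grouped for a link to de novo methylation, 2 of 5 were listed. NSD1, which writes the histone H3 lysine mark that DNMT3A recognises, reached 157 and 47 reads in coding sequence (3.34, 2.40 to 4.73), and QSER1 21 and 29 (0.724, 0.393 to 1.31). DNMT3L, SETD2 and EHMT2 were unlisted.

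Of the methyl-CpG binding genes 5 of 7 were listed, and all 5 had a peak with more IP than input reads. ZBTB33, which encodes the methyl-DNA binding repressor Kaiso, was highest, and its 5′ UTR window held 56 IP and 7 input reads (8.0, 3.64 to 20.8). MBD2, a methyl-CpG binding protein of a histone deacetylase complex, was lowest, with 36 and 25 in coding sequence (1.44, 0.841 to 2.50). MBD4 and ZBTB4 were unlisted. Of the genes of removal and base excision repair 7 of 9 were listed. The glycosylase NEIL1 was highest at 13 IP reads and 1 input read (13.0, 1.95 to 552), and the polymerase POLB lowest at 19 and 20 (0.950, 0.480 to 1.88). APEX1 and GADD45B were unlisted.

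Among genes that act on the TET enzymes or their cofactor, 3 of 5 were listed. CXXC5, a CpG-binding protein, held 28 IP reads and 1 input read in its 5′ UTR (28, 4.63 to 1145), and the isocitrate dehydrogenase IDH1 held 6 and 15 (0.400, 0.127 to 1.09). OGT and CXXC4 were unlisted. In the S-adenosylmethionine cycle, which supplies the methyl group, 3 of 4 were listed. MTR, the methionine synthase, reached 17 and 10 reads in its 5′ UTR (1.70, 0.735 to 4.15). MAT2A, the synthetase that makes S-adenosylmethionine, had 7 windows, none with more IP than input reads, and at most 98 against 563 (0.174, 0.139 to 0.216). AHCY was unlisted. TRDMT1, a relative of the DNA methyltransferases that methylates tRNA, held 10 and 11 reads (0.909, 0.346 to 2.36).

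**Figure D4:**
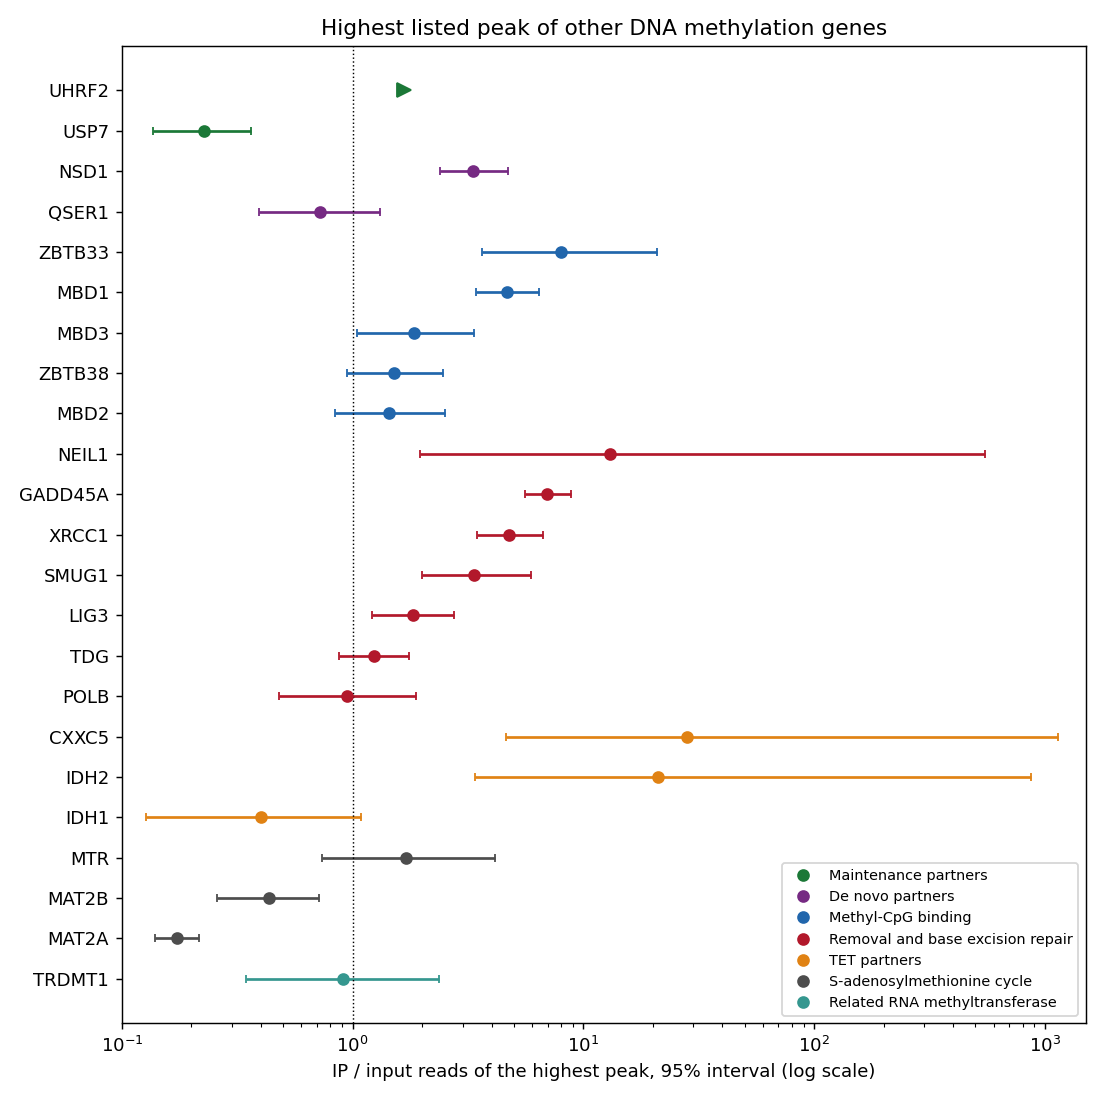
IP-to-input read ratio of the highest listed peak of 23 other DNA methylation genes, grouped by role, on a log axis. Bars are exact 95% intervals for counting error. The arrowhead marks UHRF2, drawn at 1.67 with 3 counts in place of 0 input reads. Its exact interval is not drawn and runs from 0.916 upwards. The other ratios run from 0.174 in MAT2A to 28 in CXXC5, and the widest intervals drawn belong to peaks with 1 input read.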

How the data were processed

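m6A-seq of poly(A) RNA was analysed from 1 deposited peak table. Per the labels, 2 IP and 2 input libraries were made, and whether these were separate cultures is not stated. HISAT2, HOMER and GRCh38/hg38 appear in the submitters' processing notes without version or role. For the peak caller and the counting rule no source used here gives a name. Each peak had 1 IP and 1 input count of whole reads as deposited. The authors' p-value, FDR and window score were deposited per peak and used only as description. Some FDR values lie below the p-value of the same window, as in codons 78 to 181 of DNMT1, and their derivation is not known here. Of the 44 member windows, 42 had an FDR of at most 0.05. Listed peaks had at least 5 IP reads.

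Of 27855 entries, repeats of the same gene and coordinates were dropped, leaving 27678. Windows of a gene were placed on the GENCODE release 29 coding transcript that gave most of them exonic ends and a spliced length that is a multiple of 10 nt, as all member windows had except one of 135 nt in TET2. In all, 27154 peaks could be placed in this way. Coordinates are 1-based on GRCh38. Ratios are IP over input, with exact 95% Clopper-Pearson intervals from the IP share, and quotients of ratios have exact conditional intervals. With 0 input reads, a floor of 3 counts was used. A pseudocount of 1 was used on the log2 scale. Intervals and floors cover counting error only. Interval and placement code was tested on simulated data (Python 3.11.15, scipy 1.17.1, pandas 2.3.3). The planned test across replicates could not be run on pooled counts.

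The members and the gene lists were chosen with earlier results of these data known. Every window of the members is given. In each role list, the genes with the highest and the lowest highest-peak ratio are named, and all unlisted genes. Some genes of these lists are not reported here and enter no count.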

Additional observations from a re-analysis of the deposited data

How the results depend on the processing

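Of 23 alternatives, 19 left the value within 1.5 times its count, or a ratio within its counting interval. Merging windows closer than 100 nt on the mRNA into the one with most IP reads left 11, of which 6 had more IP than input reads, against 27 of 44. By midpoint instead of the authors' region column, windows in the 5′ UTR numbered 1 instead of 3 and those in the 3′ UTR 1 instead of 2. Taking the window with the highest score in the authors' deposited table (log2 scale, pseudocount of 1) moved the highest log2 ratio of UHRF1 to 2.91, against 4.44. Among the alternatives that changed little, requiring at least 50 reads, IP and input together, left 2 genes with a window at or above a ratio of 4, since TET2 has too few reads, and the median ratio of the table as dividing line gave 30 of 44 windows. Leaving out a library was not run, since the counts are pooled. No paired analysis was possible because the columns carry no replicate number. Depth limits TET2 and DNMT3A most, with 22 and 13 IP reads in all. An unlisted gene or stretch may be unmethylated, thinly covered or left out for another reason.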

Other observations

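The reads of overlapping windows did not nest. Of 28 overlapping neighbours in 4 of the genes, most shared 90 nt. In DNMT1 the windows over codons 285 to 324 and 295 to 348, of 120 and 160 nt with 90 nt in common, held 4096 and 890 IP reads, against 368 and 450 input reads. In UHRF1 the window over codons 159 to 262, of 310 nt, held 379 IP and 166 input reads, and the next one, of 130 nt with 90 nt in common, held 830 and 258. No source used here says how reads were assigned to windows, so values per 100 nt depend on an unknown counting rule, and ratios within 1 window do so less directly.

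Other genes of the pathway lists had ratios above 4. GADD45A, a stress-induced gene linked to active demethylation, had a 5′ UTR window of 614 IP and 88 input reads (6.98, 5.57 to 8.83), with more IP than input reads in 4 of 4 windows. XRCC1, a scaffold of base excision repair, reached 224 and 47 reads in coding sequence (4.77, 3.47 to 6.67), with more IP than input reads in 1 of 8 windows. MBD1, a methyl-CpG binding protein, reached 238 and 51 (4.67, 3.44 to 6.45), in 3 of 8. IDH2, the mitochondrial isocitrate dehydrogenase, held 21 IP reads and 1 input read (21.0, 3.38 to 868). These genes were chosen after their values were seen.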
